A study of Mus musculus with 16 samples.

Results

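CTCF binding was compared genome-wide between mouse embryonic stem (ES) cells grown in serum and in 2i, using the authors' deposited peak lists of 1 ChIP-seq library per medium. Every peak of both lists was used, 50185 in serum and 56138 in 2i, of 135183 CTCF peaks over the 3 lists of the series. Peaks of the ES lists that shared at least 1 bp were merged into 59571 union regions.

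The study mapped chromosome contacts by 5C at 7 loci and CTCF binding by ChIP-seq in ES cells and neural progenitor cells (NPCs), over 16 samples in all. Both ES libraries came from V6.5, a male ES line of 129SvJae and C57BL/6 parentage with no treatment given in the labels. One was grown in medium with serum and LIF, the other in 2i, which lacks serum and combines LIF with the kinase inhibitors PD0325901 (against MEK) and CHIR99021 (against GSK3). Both cultures were first expanded on inactivated embryonic fibroblasts and then moved to gelatin, a step meant to remove these feeders. Both libraries used the same anti-CTCF antibody from Millipore. NPCs, from brains of newborn mice carrying Sox2-eGFP and of the same strain label, gave a list of 28860 peaks, used here only as a further readout of the ES regions. V6.5 is a single line, and each list is 1 library, so differences between media cannot be told apart from differences between libraries. No test was made, and intervals below are 95% exact (Clopper-Pearson) ones that cover counting error only. The lists hold no expression, so the cell type labels were not checked against marker genes.

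CTCF is a zinc-finger protein that binds a long DNA motif and lies at many insulators, domain boundaries and loop anchors, where it stalls the ring-shaped cohesin complex as cohesin extrudes DNA. Most of its sites are bound in many cell types, and methylation of CpGs within the motif blocks binding at a part of the others. ES cells in 2i are known for a DNA methylation level below that of ES cells in serum.

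The bulk of CTCF sites were shared by the media. In 46504 union regions, 78.1% (77.7 to 78.4), a peak was listed in serum and in 2i. A further 3594 regions (6.03%) were listed in serum only and 9473 (15.9%) in 2i only, so 21.9% of regions lay in 1 list. Seen from each list, 46591 serum peaks (92.8%, 92.6 to 93.1) overlapped a 2i peak, and 46665 2i peaks (83.1%, 82.8 to 83.4) overlapped a serum peak. The 2i list is the longer one, and when the 5953 2i peaks with the lowest −log10 q were left out to equalise the lists, serum only and 2i only regions made up 10.5% and 10.4% of the union. Lists of equal length must have nearly equal one-list shares, so these values show only how the split of one-list regions follows the list lengths.

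Regions in both lists matched closely in position. Of these, 46260 held exactly 1 peak of each list. Their summits, the base with the most fragments, lay a median of 15 bp apart, 90% were within 42 bp and 99.2% within 100 bp. The pileup, the number of ChIP fragments over the summit, was recovered as a whole number for 100% of peaks from the deposited fold and −log10 p. Over these 46260 regions the pileup in serum and in 2i had a Spearman correlation of 0.884 across sites, which are not independent replicates.

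The depth behind the lists was equal. The lowest local background divided by the smallest peak width, which stands for the fragment length, gave 0.00588 reads per base in both. If the genome size was MACS2's default for mouse, 1.87 Gb, this corresponds to 11 M reads each. The median pileup was 43 in both lists, the lower quartile 27 in both and the upper quartile 68 in serum and 67 in 2i. Pileups ran from 11 to 305 in serum and from 11 to 275 in 2i. Fold enrichment over local background, the authors' value, had a median of 17.8 in the serum list and 16.6 in the 2i list.

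Serum peaks were wider. Their median width was 311 bp (quartiles 243 and 391, range 163 to 1897), against 279 bp (220 and 346, range 152 to 1361) in 2i. In the 46260 regions with 1 peak of each list, the serum peak was wider in 62.4% and the 2i peak in 37.0%, with a median difference, serum minus 2i, of 21 bp (quartiles -23 and 68). The narrowest peaks, whose width follows the fragment length set in peak calling, already differed by 11 bp, and the width of binding and the fragment length cannot be told apart here. The wider serum peaks and the more numerous 2i peaks covered the same length, 16.5 Mb in each list. The widest serum peak, chr19:5567353-5569249, measured 1897 bp in serum and 1170 bp in 2i. The widest 2i peak, in the region chr5:36740599-36742067, measured 1361 bp in 2i and 1469 bp in serum, so the broadest site of each medium was broad in the other.

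**Figure D1:**
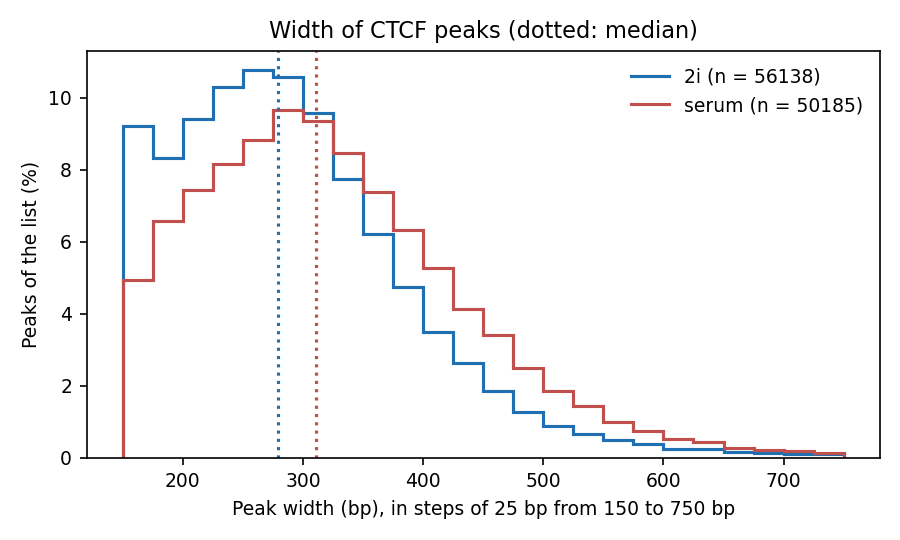
Width of CTCF peaks in bp (horizontal axis, steps of 25 bp) as the percentage of each list (vertical axis), for 50185 serum peaks (red) and 56138 2i peaks (blue), with dotted lines at the medians of 311 and 279 bp. The 2i list holds more of its peaks in the narrowest steps, and the serum list more of its peaks above 325 bp.

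Sites listed in 1 medium were low sites. Serum peaks without a 2i peak had a median pileup of 20 against 46 for the others, and a median fold of 9.19 against 18.9. Their median width was 196 bp against 320 bp, and 99.5% of them lay below the median fold of the serum list. The 2i peaks without a serum peak had a median pileup of 21 against 50, a median fold of 9.76 against 18.8 and a median width of 190 bp against 298 bp, and 96.3% lay below the median fold of their list. When each list was ordered by fold enrichment, the overlap with the other list rose from 71.1% in the lowest 10% of serum peaks to 98.1% in the 10% just below the list's median and 100% in the highest 10%. In 2i it rose from 48.1% in the lowest 10% to 90.3% just below the median and 99.96% in the highest 10%, where 2 peaks had no serum peak.

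**Figure D2:**
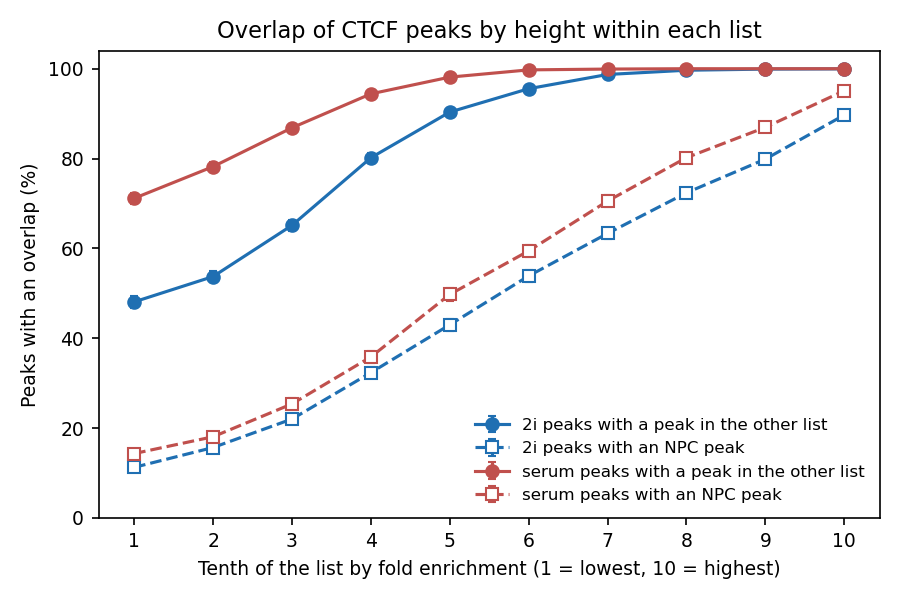
Percentage of peaks that overlap a peak of the other ES list (vertical axis) in 10 equal slices of the list by fold enrichment (horizontal axis, lowest to highest), for serum peaks (red) and 2i peaks (blue). Dashed lines with open squares give the overlap with the NPC list, and bars are 95% exact intervals for counting error. The serum list rises from 71.1% to 100% and the 2i list from 48.1% to 99.96%.

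By fragments at the summit, 37.5% of the 4752 serum peaks with a pileup under 20 had no 2i peak, 15.5% of the 10471 at 20 to 29, 2.44% of the 7428 at 30 to 39, and 12 of the 27534 at 40 or more, which is 0.0436%. In 2i the shares without a serum peak were 67.8% of 5062, 40.1% of 11843, 12.3% of 8676 and 0.736% of 30557, the last being 225 peaks. High peaks missing from the other list were thus few in both media and more numerous in 2i. In both lists a pileup of 11 was the lowest called at the lowest background, and −log10 p began at 8.22, so a site absent from a list may still hold fragments below the threshold.

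The highest serum only sites were moderate members of their list. The region chr9:107503128-107503428 had the highest fold, 22.5 with a pileup of 45, which ranked 17641 of 50185 by fold. On chromosome 1, chr1:36672863-36673155 had a fold of 22.3 with a pileup of 54, the highest pileup of any serum only region, and chr1:82378538-82378805 a fold of 21.4 with a pileup of 41. The regions chr13:46933957-46934228 (fold 20.9) and chr11:55795223-55795509 (fold 20.4) also held an NPC peak, and the other 3 of these 5 did not.

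The highest 2i only sites stood further up their list. The region chr4:43743812-43744127 had a fold of 35.2 and a pileup of 66, which ranked 4139 of 56138. It was followed by chr3:117454638-117454894 with a fold of 33.3 and a pileup of 62, chr15:87604435-87604721 with 32.7 and 61, chr2:163423503-163423782 with 30.6 and 57, and chr5:130952674-130952948 with 29 and 54. Of these 5, the chromosome 3 region held an NPC peak. A pileup of 60 or more was reached by 6 of the 2i only regions and by 0 of the serum only regions. Beside the first 3 just given, and named after their values were seen, these were chr8:98125331-98125593 with 64, chr8:98319596-98319869 with 60, and chr11:3072094-3072335 with 119. The chromosome 11 region had a local background of 33.0 fragments and a fold of 3.53, so its pileup stood on an unusually high background, whereas the median background of 2i only peaks with a pileup of 40 or more was 1.62, the same as for all 2i peaks of that height.

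The highest sites of all were bound in both media and in NPCs. By serum fold the first 3 were chr2:31146942-31147616, with a pileup of 206 in serum and 180 in 2i, chr3:54539054-54539645, with 187 and 202, and chr8:24347985-24348719, with 229 and 251. By 2i fold they were chr12:85930593-85931190, with 186 in serum and 204 in 2i, chr10:67475800-67476336, with 159 and 186, and chr5:35704233-35704990, with 164 and 159. All 6 held an NPC peak.

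One-list sites were mostly separate sites rather than displaced edges of a peak of the other list. From the edge of a serum only peak the edge of the nearest 2i peak lay a median of 8376 bp away, within 100 bp in 0.417% and within 1 kb in 9.93%. From a 2i only peak the nearest serum peak lay a median of 10018 bp away, within 100 bp in 0.391% and within 1 kb in 8.15%.

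The NPC list gave a readout from other cells that the ES overlap did not use. An NPC peak lay in 26436 regions of both ES lists (56.8%, 56.4 to 57.3), in 417 serum only regions (11.6%, 10.6 to 12.7) and in 641 2i only regions (6.77%, 6.27 to 7.29). The share rose with peak height in both lists, from 14.3% in the lowest to 95.1% in the highest 10% of serum peaks by fold, and from 11.2% to 89.7% of 2i peaks. Since one-list sites are low, the classes were set side by side at like pileups. This matches the height in the peak's own list only. One-list peaks are by definition not called in the other ES list, so the classes can still differ in height there. The shares below therefore do not separate class from height. At a pileup of 20 to 29, 14.1% of 1620 serum only peaks (12.5 to 15.9) and 20.3% of 8851 serum peaks with a 2i peak overlapped an NPC peak. In 2i these shares were 6.99% of 4748 (6.28 to 7.76) and 21.3% of 7095. At 30 to 39 they were 26.5% of 181 (20.2 to 33.6) against 36.9% in serum, and 12.9% of 1070 (10.9 to 15.1) against 34.4% in 2i. Among the 225 2i only peaks with a pileup of 40 or more, 33 overlapped an NPC peak (14.7%, 10.3 to 20.0), against 72.9% of the 30332 others. The serum set of that height has 12 peaks, of which 4 overlapped (33.3%, 9.92 to 65.1). In each of these 3 ranges the NPC share of one-list peaks was below that of shared peaks of the same list, and the 2i only share was below the serum only share, with overlapping intervals at 40 or more. Under 20 the serum classes lay closer, with 7.64% of 1781 serum only peaks (6.45 to 8.97) against 9.59% of shared ones (8.56 to 10.7). These intervals overlap. In 2i the shares under 20 were 4.02% of 3430 against 14.7%. With peaks of −log10 q of at least 20 alone, the NPC share was 66.6% for both, 18.3% for serum only and 10.1% for 2i only.

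**Figure D3:**
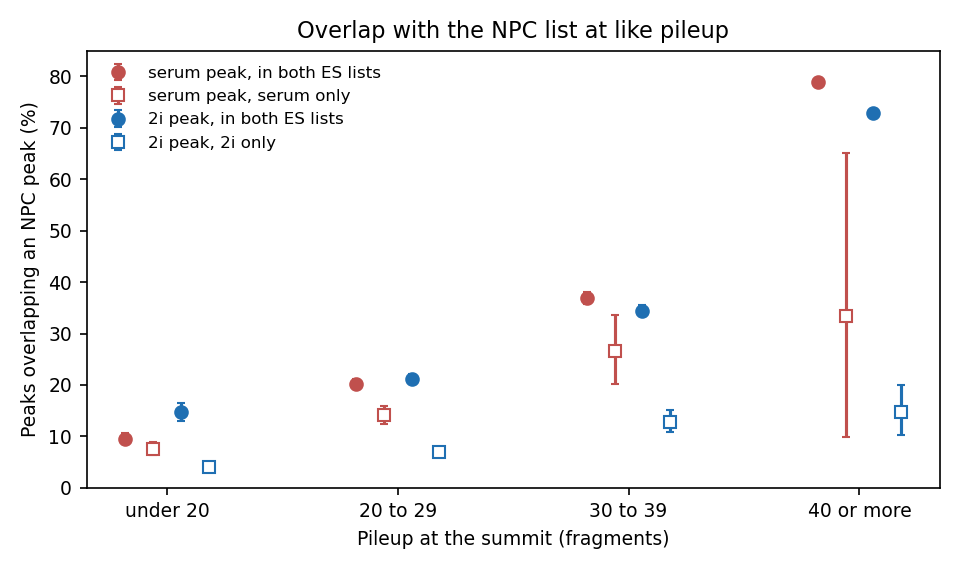
Percentage of ES peaks that overlap an NPC peak (vertical axis) by pileup at the summit in the peak's own list, in fragments (horizontal axis). Serum and 2i peaks with and without a peak in the other ES list are shown, with 95% exact intervals for counting error. At 20 to 29 fragments the one-list peaks reach 14.1% in serum and 6.99% in 2i, against 20.3% and 21.3% for shared peaks.

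Along the chromosomes the lists followed each other. The 2i list held 1.12 times as many peaks as the serum list, and by autosome the ratio ran from 1.06 on chromosome 1 to 1.18 on chromosome 8. Chromosome 11 was the densest, with 31.9 serum and 34.9 2i peaks per Mb, and chromosome 3 the sparsest autosome, with 14.9 and 16.8. Chromosome X held 7.71 and 8.67 peaks per Mb, and chromosome Y 3 peaks in serum and 4 in 2i.

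Chromosomes 1 and 8 lay at the ends of the autosomes in the serum only share, and X lay above the autosomes in both one-list shares. Chromosome 8 had the lowest serum only share, 3.87% (3.24 to 4.57), and a 2i only share of 18.2% (17 to 19.6), near the 18.6% of chromosome 13 and the 17.8% of chromosome 12. Chromosome 1 had the highest serum only share of the autosomes, 7.76% (6.94 to 8.64), and the lowest 2i only share, 12.8% (11.8 to 13.9). Over both one-list classes, chromosomes 1 and 8 had 20.6% and 22.1%, inside the range of the other autosomes. Chromosome X had 8.79% (7.43 to 10.3) in serum only and 18.8% (16.9 to 20.9) in 2i only. Chromosome 13 had the highest share of one-list regions among the autosomes, 24.8%, and chromosome 7 the lowest of any, 20.2%. With the same number of peaks from each list, chromosome 8 had 7.32% serum only and 13.0% 2i only regions, chromosome 1 had 12.8% and 8.22%, and X had 16.6% and 12.5%. The order of the classes thus turned on X and on chromosome 1, while chromosome 8 kept more 2i only regions.

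On chromosomes 1 and 8 the median pileups differed between the lists in the direction of these shares, but this did not hold across chromosomes. Chromosomes 12 and 13, with 2i only shares near that of chromosome 8, had median pileups of 41 and 42 in serum and 39.5 and 41 in 2i. The median pileup on chromosome 8 was 48 in serum and 53 in 2i, and on chromosome 1 it was 47 in serum and 43 in 2i. On the other autosomes it lay between 41 and 46 in serum and between 39.5 and 46 in 2i, and on X, of which male cells have a single copy, it was 29 and 28. The share of peaks whose local background was at the lowest value of the list was 12.9% in serum and 4.62% in 2i on chromosome 8, against 21.6% to 37.9% and 12.2% to 29.9% on the autosomes other than 1 and 8. On chromosome 1 it was 16.0% and 19.4%. In the NPC list, chromosomes 1 and 8 both had a median pileup of 35, within the autosomal range of 34 to 37. Of the 225 2i only peaks with a pileup of 40 or more, 35 lay on chromosome 8 (15.6%), which holds 6.85% of all 2i peaks of that height. Of the 12 such serum only peaks, 3 lay on chromosome 1, which holds 6.82% of serum peaks of any height. On chromosome 8, which holds 6.15% of all serum peaks with a pileup of 40 or more, there were 0. A set of 12 peaks is too small to show a pattern by chromosome. Without chromosomes 1, 8 and X, the 2i only and serum only sets numbered 178 and 9. Chromosome copy number was not measured, and its part in the pileups was not tested.

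**Figure D4:**
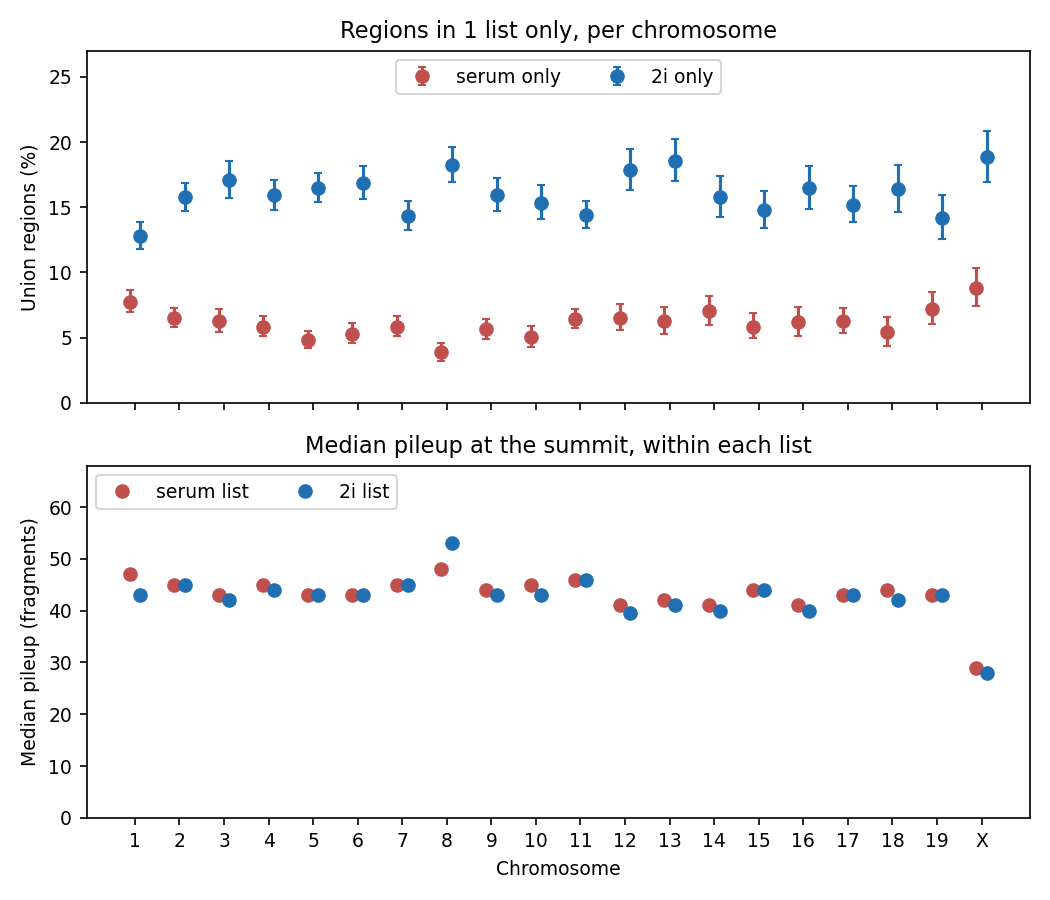
Upper panel, percentage of union regions listed in serum only (red) and in 2i only (blue) on each chromosome except Y, with 95% exact intervals for counting error. Lower panel, median pileup of the peaks of each list in fragments. Among the chromosomes shown, chromosome 8 is highest in 2i with 53 and chromosome X lowest with 29 and 28.

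Neighbouring peaks lay a median of 18569 bp apart in serum (quartiles 6407 and 48875) and 16721 bp in 2i (5878 and 43526). With the same number of peaks from each list the 2i median was 18623 bp. Less than 1 kb separated 3.21% of neighbours in serum and 3.63% in 2i. Distances over 1 Mb numbered 123 and 102. The longest peak-free stretch lay on X in both lists, from 23390587 to 33353406 in serum, where 2i had 2 peaks, and from 23777328 to 33223481 in 2i. The longest on an autosome, from 39325339 to 46447363 on chromosome 7 in serum, held no 2i peak either.

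Runs were defined as 3 or more peaks with neighbouring summits at most 10 kb apart. Serum had 3900 runs with 15097 peaks, 30.1% of its list, and 2i had 4711 with 18625 peaks, 33.2%. With equal numbers of peaks the 2i share was 29.9%. In runs of the union, the one-list classes took part a little less than shared regions. The shares were 35.6% of regions of both lists (35.2 to 36.1), 32.8% of serum only regions (31.3 to 34.4) and 31.5% of 2i only regions (30.6 to 32.5). With a limit of 5 kb these shares were 16.0%, 13.8% and 13.4%, and with 20 kb 60.2%, 56.4% and 56.1%, in the same order. Of 5152 union runs, 2249 (43.7%) were made of shared regions alone, 1840 (35.7%) of shared and 2i only regions, 617 (12%) of shared and serum only regions, and 402 (7.80%) of all 3 kinds. Of the runs without any shared region, 15 held 2i only regions, 5 serum only regions and 24 both kinds. With 78.1% of all union regions shared, few such runs were all but given, so these counts show nothing particular to one-list sites.

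The run with the most peaks in serum, chr17:35671279-35734336, lay within the Oct4 locus of the 5C design and held 18 serum peaks over 63.1 kb. Of its 21 union regions, 15 were shared, 3 were serum only and 3 were 2i only. The shared regions had pileups of 15 to 143 in serum and 18 to 132 in 2i, the serum only regions 22 to 31 and the 2i only regions 17 to 42, and the 7 regions with an NPC peak were all shared. The next serum run, chr10:79112150-79177785, held 16 peaks, of which 15 were shared and 7 held an NPC peak. The run with the most peaks in 2i, chrX:47914114-47976529, held 25 peaks over 62.4 kb, of which 15 were shared and 10 were 2i only. All 25 were low to moderate, with 2i pileups of 14 to 35 in the shared regions and 15 to 34 in the 2i only ones, and the shared regions had serum pileups of 14 to 34. An NPC peak lay in 9 of its 15 shared and 5 of its 10 2i only regions, so this stretch of X was a dense array of sites in all 3 lists, with the most peaks listed in 2i.

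Stretches of consecutive one-list regions were short, which was all but given with 78.1% of all union regions shared. The longest stretch of 2i only regions held 6, chr3:68081640-68289835, with pileups of 15 to 27 and 1 NPC peak, and the longest of serum only regions held 4, in chr14:43928301-44109544 and in chr9:40573130-40594755.

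The 7 loci of the 5C design, named for pluripotency genes (Sox2, Nanog, Oct4, Klf4), neural genes (Nestin, Olig1-Olig2) and a gene desert, held 50.4 serum and 55.3 2i peaks per Mb together, against 19.5 and 21.8 over all chromosomes. The Oct4 (77.3 and 80.6), Nanog (73.8 and 80.6) and Nestin (60.9 and 73.8) loci were the densest, followed by Olig1-Olig2 (33.3 and 38.6) and Klf4 (22.3 and 25.3). The Sox2 locus, with 20.1 in each list, was near the genome-wide density, and the gene desert was sparser, with 10.4 and 15.6. The 7 loci held 424 union regions, of which 334 were shared (78.8%, 74.6 to 82.6, near the 78.1% of all regions), 30 serum only and 60 2i only. The Oct4 locus held 149 shared, 13 serum only and 17 2i only regions. The Nestin locus held 61, 5 and 18, the Nanog locus 49, 5 and 9, and the Olig1-Olig2 locus 34, 4 and 9. The Klf4 locus held 22, 0 and 3, the Sox2 locus 17, 3 and 3, and the gene desert 2, 0 and 1.

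In the Sox2 locus the highest peak was the same in both lists, chr3:34539668-34540130, with a pileup of 103 in serum and 101 in 2i and an NPC peak. Its highest one-list regions were chr3:34565163-34565409 in serum, with 25 fragments, and chr3:34331508-34331687 in 2i, with 24. In the Nanog locus the highest fold in serum was at chr6:122784364-122784879, with 103 fragments in serum and 88 in 2i, and the highest in 2i at chr6:122619279-122619845, with 161 and 155. The 2i only region chr6:122478232-122478489 reached 45 fragments, above the 25 of the highest serum only region by fold there, chr6:122914564-122914834.

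In the Oct4 locus the highest serum fold was at chr17:35715073-35715909, with 143 fragments in serum and 130 in 2i, inside the run described above, and the highest 2i fold at chr17:35048766-35049508, with 131 and 126. The 2i only regions chr17:35704833-35705102, also in that run, and chr17:36071283-36071581 had 42 fragments each, and the serum only regions chr17:35724327-35724547 and chr17:34845938-34846223 had 31 and 23. The Klf4 locus had its highest serum fold at chr4:55377245-55377740, with 73 fragments in serum and 87 in 2i, and its highest 2i fold at chr4:55493256-55493676, with 93 and 118. Its 3 2i only regions, chr4:55421973-55422172, chr4:55273297-55273468 and chr4:54960009-54960160, had 23, 20 and 21. The one-list sites named for the pluripotency loci were below the highest shared site of the same locus in each case. One-list sites were low genome-wide and fewer than shared sites at each locus, so this order was all but given. It shows nothing particular to these loci.

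In the neural loci the named one-list sites were likewise below the highest shared site, with the same limit. At Nestin the highest serum fold was at chr3:87790777-87791418, with 190 fragments in serum and 173 in 2i, and the first 2i only region, chr3:87386553-87386773, had 27. At Olig1-Olig2 the highest serum fold was at chr16:91045761-91046188, with 119 and 82, and the first serum only region by fold, chr16:91474277-91474508, had 26. The gene desert had its highest peak at chr5:133317737-133318031, with 26 fragments in serum and 45 in 2i, and a 2i only region at chr5:133415658-133415886 with 33.

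The authors sorted pairs of 4 kb bins of these loci into looping classes by the conditions with a loop, which allowed CTCF peaks to be counted at anchors. In the class looped in 2i only, 60 of 244 anchor bins held a serum peak (24.6%, 19.3 to 30.5) and 60 held a 2i peak. The class that the authors name for ES cells alone was read as looped in serum only, since 2i has its own name in the table and the median deposited interaction score of its pixels was 54.1 and 52.7 in the serum libraries and 6.41 and 7.57 in the 2i libraries. In this class, 54 of 232 bins (23.3%, 18.0 to 29.3) held a serum peak and 54 a 2i peak. Constitutive anchors held a serum peak in 27.9% and a 2i peak in 28.9% of 689 bins, and bins of background pairs in 18.3% and 18.9% of 903. A shared region lay in 56 of the 244 bins of the 2i only loops and in 47 of the 232 bins of the serum only loops. A 2i only region lay in 6 of the 244 bins (2.46%) and a serum only region in 6 (2.46%). In the 232 bins these were 10 (4.31%) and 8 (3.45%). Bins of background pairs held them in 3.32% and 1.77% of 903. The one-list shares were thus near those of background bins, with overlapping intervals. Under this reading, each of the classes for 1 medium held as many bins with a CTCF peak of the other medium as of its own. Bins with a serum and with a 2i peak were also equal in the class for both media (64 and 64) and for NPCs alone (74 and 74). They numbered 79 and 78 in the class for NPCs and 2i, and 36 and 39 in that for ES cells and NPCs. With 78.1% of all regions shared, near-equal counts were all but given and show nothing particular to these loops. Bins can belong to several classes, and a peak can lie in neighbouring bins, so these bins are not independent.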

How the data were processed

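Per the submitters' processing notes, the authors used MACS2 for peak calling and the mm9 build. The MACS2 version and the aligner were not given in the sources used here. The deposited lists name downsampled reads and a threshold of 1e-08. They give a fold ratio over local background, −log10 p and −log10 q, all the authors' values, which served only for description, ranking and filtering inside each list. No input library was analysed here. The deposited classified table gives the loop classes, and its interaction score columns were used for ES cells only, with 2 NPC score columns not used.

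From the fold, (pileup + 1) over (background + 1), and the Poisson −log10 p, pileup and background were solved, with a whole pileup accepted within 0.0005 of −log10 p. Overlap meant at least 1 bp, and peaks per Mb are over the span between the outermost peaks of a chromosome or over the locus. Named regions were the highest by fold per list, per class and per 5C locus, the longest runs and gaps, the widest peaks and the extreme chromosomes. Members, lists and rules were chosen with earlier results of these data known. Alternatives were other overlaps, thresholds, equal list lengths, run distances, autosomes alone, and, chosen after seeing the data, leaving out chromosomes 1, 8 and X. Reads carry no molecular identifiers. Steps were tested on simulated data. Positions are mm9, 1-based; no gene annotation or sequence of mm9 was used here. Python 3.11.15, numpy 2.4.6, pandas 2.3.3, scipy 1.17.1 and matplotlib 3.10.9 were used.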

Additional observations from a re-analysis of the deposited data

How the results depend on the processing

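No paired analysis was possible because each list is 1 library and no result comes from a test. Under the alternatives, 20 values stayed within their interval or within 1.5 times the count, and 34 moved. Some of the 20 could not move, so their number does not measure stability. No rows were duplicated, so counts and widths over rows as deposited repeated the main values. Equal list lengths left the serum list whole, so its spacing and share in runs were unchanged. Serum peaks overlapping a 2i peak were 91.4% when 50% of each peak had to be covered, 91.9% with summits at most 100 bp apart, 98.0% for serum peaks of −log10 q of at least 20 against the full 2i list and 88.3% with equal list lengths. For 2i peaks these were 81.7%, 82.2%, 92.9% and 88.4%, and 83.9% with −log10 q of at least 20 in both lists. Shared regions were then 78.6% of the union, and 79.1% with equal lengths. At −log10 q of at least 20 the median width was 337 bp in serum and 302 bp in 2i, and the NPC shares were 66.6% for both, 18.3% for serum only and 10.1% for 2i only. With equal lengths the 2i only and serum only shares were 13.0% and 7.32% on chromosome 8, 8.22% and 12.8% on chromosome 1, and 12.5% and 16.6% on X, the 2i spacing was 18623 bp and the 2i share in runs 29.9%. With neighbours at most 5 kb or 20 kb apart, the share in runs was 13.0% or 53.7% in serum and 14.7% or 57.5% in 2i, and in the union 16.0% or 60.2% for both, 13.8% or 56.4% for serum only and 13.4% or 56.1% for 2i only. The cause of these moves was not tested. At 11 fragments, the lowest pileup called, a site missing from a list is not shown to be unbound.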

Other observations

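The authors' deposited interaction scores gave a further readout of the 5C loci, as medians over the pairs of 4 kb bins (pixels) of the classified table, background pixels included. No source used here states the score's scale, the authors chose the pixels on these scores, and pixels of a cluster share bins. Over 405 pixels with a shared CTCF region in both bins, the median score was 45.3 and 47.8 in the 2i libraries and 31.0 and 29.5 in the serum libraries. Over 2999 pixels with no ES peak in either bin it was 10.3 and 11 in 2i and 4.2 and 4.0 in serum, lower in all 4 libraries. Of the 405 pixels, 60 were background and 140 constitutive, and of the 2999, 1131 and 603. Since the pixels were chosen on these scores, a part of CTCF in these medians cannot be told apart from this make-up. Over 247 pixels, in 83 clusters, with a 2i only region and no serum peak in a bin, it was 4.8 and 7.1 in 2i and 11.3 and 11.4 in serum. Over 182 pixels, in 62 clusters, with a serum only region and no 2i peak in a bin, it was 26.3 and 31.0 in 2i and 32.3 and 27.5 in serum. Pixels at 2i only regions thus scored lower in both 2i libraries than in both serum libraries, while those at serum only regions had no single direction. Of the 247 pixels, 92 were background and 6 were of the class looped in 2i only. Of the 182, these numbered 60 and 9. Pixels of the class read as looped in serum only were not counted in these sets, so the make-up given is partial. The part of this make-up in the scores was not tested, nor was the difference.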
